A study of Homo sapiens with 24 samples.

Results

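The DEAD and DEAH box proteins are the main families of RNA helicases in human cells, and the tables name most of their genes DDX or DHX with a number. Genes were taken where the group name, without its locus prefix, was DDX or DHX followed by digits and at most 1 letter, with chromosome Y left out. This found 47 genes among 13236 gene groups, made up of 953 of 164219 counting bins. The authors had marked 56 of these bins, in 32 of the genes, as detained introns, out of 4769 detained introns in the tables. DDX39B, an export helicase, is listed only within a merged group that the name rule did not match, so it is not described. Genes were taken by name alone, and whether each encodes a working helicase was not checked.

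The RNA came from HEK293T, an established line of human embryonic kidney origin, grown in wells and given fresh medium before treatment. In the OSMI-2 experiment, cells received 10 µM OSMI-2, an inhibitor of OGT, the enzyme that adds O-linked N-acetylglucosamine (O-GlcNAc) to proteins inside the cell. In the TMG experiment, cells received 5 µM TMG, an inhibitor of OGA (MGEA5), the enzyme that removes the same sugar. Each treatment lasted 2 h or 6 h and had DMSO libraries of its own, so that no drug comparison shared controls with another. The comparisons of DMSO at 6 h with 2 h and of the 2 drugs' effects use these same DMSO libraries again. Every group had 3 libraries (a, b and c), except OSMI-2 at 6 h, of which 2 were in the table and the other was not analysed here. All libraries were made from polyadenylated RNA with a stranded kit. Nothing in the labels says that the libraries of a group came from separate cultures, so the p-values measure only the spread between these libraries, which may be technical.

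RNA helicases of these families use ATP to unwind short RNA duplexes or to strip proteins from RNA. They act at nearly every step in the life of an RNA: in splicing, mRNA export and decay, microRNA processing, translation and the making of ribosomes. A detained intron is an intron that remains in an otherwise spliced, polyadenylated transcript that is kept in the nucleus, and the splicing helicases are themselves among the genes that carry such introns.

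Library totals ran from 39.5 to 100.2 M counts. The 22 pairs of replicate libraries differed by more than counting noise (chi-square over degrees of freedom 4.33 to 304), so none was counted as a duplicate. The libraries of the 2 experiments stood apart in base composition. The slope of log2 level on gene GC content, per 10 percentage points, was 0.425 to 1.15 in the OSMI-2 experiment and -0.54 to -0.24 in the TMG experiment. Within the OSMI-2 experiment, library a of DMSO at 6 h stood apart, with a slope of 0.425 where the other 10 libraries had 0.835 to 1.15. Where leaving this library out turned a call or a sign, or moved a named value by over 1.5 times, the value without it is also given, a choice made after seeing the data. CPM are counts scaled to a common TMM-scaled library total of 1 M. The line's markers KRT18 (16.7 to 118 CPM), KRT8 (9.33 to 68.5 CPM) and VIM (305 to 817 CPM) were found in every library. So were INA (7.803 to 41.68 CPM), PAX2 (1.199 to 4.155 CPM) and NEFM (0.299 to 2.596 CPM, from 15 counts up). COL1A1 of fibroblasts had 6.09 to 23.6 CPM, above PAX2 and NEFM. PTPRC, ALB, PECAM1 and CDH16 are not listed in the tables.

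Most of the helicase genes were well expressed. Their level, as CPM per kb of bins outside detained introns, had a median of 24.8 over the 12 DMSO libraries, against 5.71 over all gene groups. DDX5, a coregulator of transcription that also aids microRNA processing, was the highest in both experiments, with 170 ± 76.8 (SD, n = 6) CPM per kb in the DMSO libraries of the OSMI-2 experiment and 321 ± 13.0 (SD, n = 6) in those of the TMG experiment. After it came DDX49 (129), DDX39A (127), DDX56 (121) and DDX17 (98.1) in the OSMI-2 experiment, whose ranges overlapped. In the TMG experiment DHX9 (178), DDX1 (163), DDX21 (156) and DDX3X (122) followed, of which DHX9, DDX1 and DDX21 overlapped in range. Over all 12 DMSO libraries the highest means were those of DDX5, DHX9, DDX1, DDX17 and DDX39A.

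The lowest were DDX59, DDX26B, the virus sensor DDX58 (RIG-I), its relative DHX58 (LGP2) and DDX19B. DDX58 stood at 0.273 ± 0.181 (SD, n = 6) CPM per kb in the OSMI-2 experiment's DMSO libraries and at 1.18 ± 0.365 (SD, n = 6) in the TMG experiment's. DHX58 stood at 0.399 ± 0.221 and 0.223 ± 0.0401 (SD, n = 6 each). DDX19B was the only helicase gene with under 10 counts in every library. Its group holds only 1 bin, of 241 bases, so the level of the whole gene is not shown. The other 46 were tested as genes in every comparison.

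**Figure D1:**
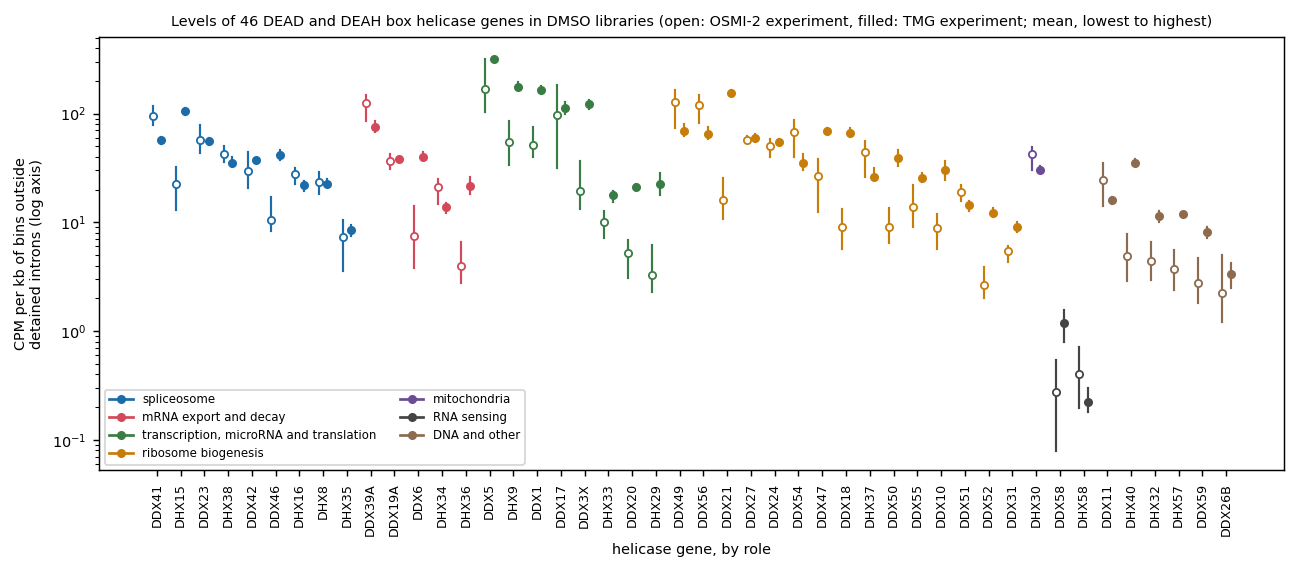
Level of each helicase gene other than DDX19B in DMSO libraries, as CPM per kb of bins outside detained introns, on a log axis. Circles are means and lines run from the lowest to the highest of 6 libraries, open for the OSMI-2 experiment and filled for the TMG experiment; DDX5 is the highest and DDX58 and DHX58 are the lowest in both.

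The levels differed between the experiments. In 23 of the 47 genes every DMSO library of the TMG experiment lay above every DMSO library of the OSMI-2 experiment, and in 3 every one lay below. The same order was not counted over all gene groups, so these counts cannot be read as a trait of the helicases. CPM were scaled within each drug and time, not across the experiments. DDX21, a nucleolar helicase of ribosomal RNA synthesis, had 31.2 to 73.8 CPM in the OSMI-2 experiment and 423 to 482 CPM in the TMG experiment, over DMSO libraries. DDX27, which processes ribosomal RNA, had nearly the same level per kb in both, 57.6 ± 3.83 and 59.3 ± 3.64 CPM per kb (SD, n = 6 each). The part of the GC slope in these gaps was not tested. The comparisons below stay within an experiment, except the difference between the drugs' effects and an alternative that fits all libraries at once.

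At 2 h, OSMI-2 changed none of the 46 helicase genes by edgeR's quasi-likelihood test with Benjamini-Hochberg adjustment at 0.05, the threshold used throughout. Of all genes tested in this comparison, 0% passed. Before adjustment, 2 helicases and 159 of all 12320 genes had p under 0.05. DESeq2 also called 0 of the helicases. The median log2 change was -0.15 for the helicases and -0.01 for all genes. DDX46, which remodels U2 snRNP at the branch site, had 51.5, 65.4 and 48.6 CPM with DMSO and 45.9, 43.1 and 46.5 CPM with OSMI-2 (libraries a, b and c, the order kept throughout). The OSMI-2 libraries of DDX46 lay below all DMSO libraries, with a log2 change of -0.29 ± 0.147 (SE), and did not pass the test.

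At 6 h, 1 of the 46 helicase genes, DDX17, passed the test against OSMI-2's DMSO, beside 4.87% of all 12486 genes. DDX17 is the close relative of DDX5 and works with it in transcription and microRNA processing. It had 946, 682 and 686 CPM with DMSO and 391 and 295 CPM with OSMI-2. All DMSO libraries lay above both OSMI-2 libraries, and the log2 change was -1.17 ± 0.354 (SE, edgeR adjusted p = 0.0342). The call rested on every library but DMSO a: the adjusted p was 0.120 without DMSO b, 0.112 without DMSO c, 0.523 without OSMI-2 a and 0.891 without OSMI-2 b, and 0.113 with median-of-ratios size factors. Without DMSO a the log2 change of DDX17 was -0.95 (edgeR adjusted p = 0.00514). DDX5 had 962, 435 and 512 CPM with DMSO and 323 and 373 CPM with OSMI-2. Both OSMI-2 libraries of DDX5 lay below the DMSO libraries, and its log2 change of -0.87 ± 0.351 (SE) had an adjusted p of 0.114. Without DMSO library a the log2 change of DDX5 was smaller, -0.40, and passed (edgeR adjusted p = 0.0334). In bulk RNA such as this, fewer cells of a type and less RNA per cell cannot be told apart.

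Library a of DMSO at 6 h set how many helicases passed. Without it, 19 helicase genes were higher and 4 lower with OSMI-2 by edgeR, beside 34.2% and 8.22% of all genes, so that 23 of the 46 helicases passed. The genes-only scaling, in which detained introns do not enter the TMM factors, turned this into 10 higher and 9 lower, beside 16.3% and 16.9% of all genes. It moved the median log2 change of all genes from 0.26 to 0.00. The helicases that passed as higher under TMM over genes and introns, median-of-ratios factors and TMM over genes only were DDX10, DDX20, DDX21, DDX46, DDX49, DDX54, DHX36, DHX37, DHX40 and DHX57. DDX5, DDX11, DDX17 and DHX35 passed as lower under all 3.

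Among the ribosome biogenesis helicases, the change of DDX21 turned on library a. It had 73.8, 31.2 and 33.5 CPM with DMSO at 6 h and 72.6 and 71.9 CPM with OSMI-2. Library a alone stood at the OSMI-2 level, and the log2 change was 0.65 ± 0.303 (SE, edgeR adjusted p = 0.180) with it and 1.21 ± 0.116 (SE, adjusted p = 0.00209) without it. DHX37, which releases the U3 RNA during assembly of the small subunit, had 144, 254 and 260 CPM with DMSO and 386 and 420 CPM with OSMI-2. Here library a lay on the far side, both OSMI-2 libraries were above all DMSO libraries, and the log2 change was 0.88 (edgeR adjusted p = 0.083) with library a and 0.69 ± 0.100 (SE, adjusted p = 0.00336) without it. DDX10, another nucleolar helicase, had 27.7, 14.3 and 15.8 CPM with DMSO and 32.3 and 31.5 CPM with OSMI-2, and both OSMI-2 libraries lay above the DMSO libraries. Of the 15 ribosome biogenesis helicases, 13 had a positive log2 change with all libraries, with a median of 0.35, and none passed the test. The median of all genes was 0.15.

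**Figure D2:**
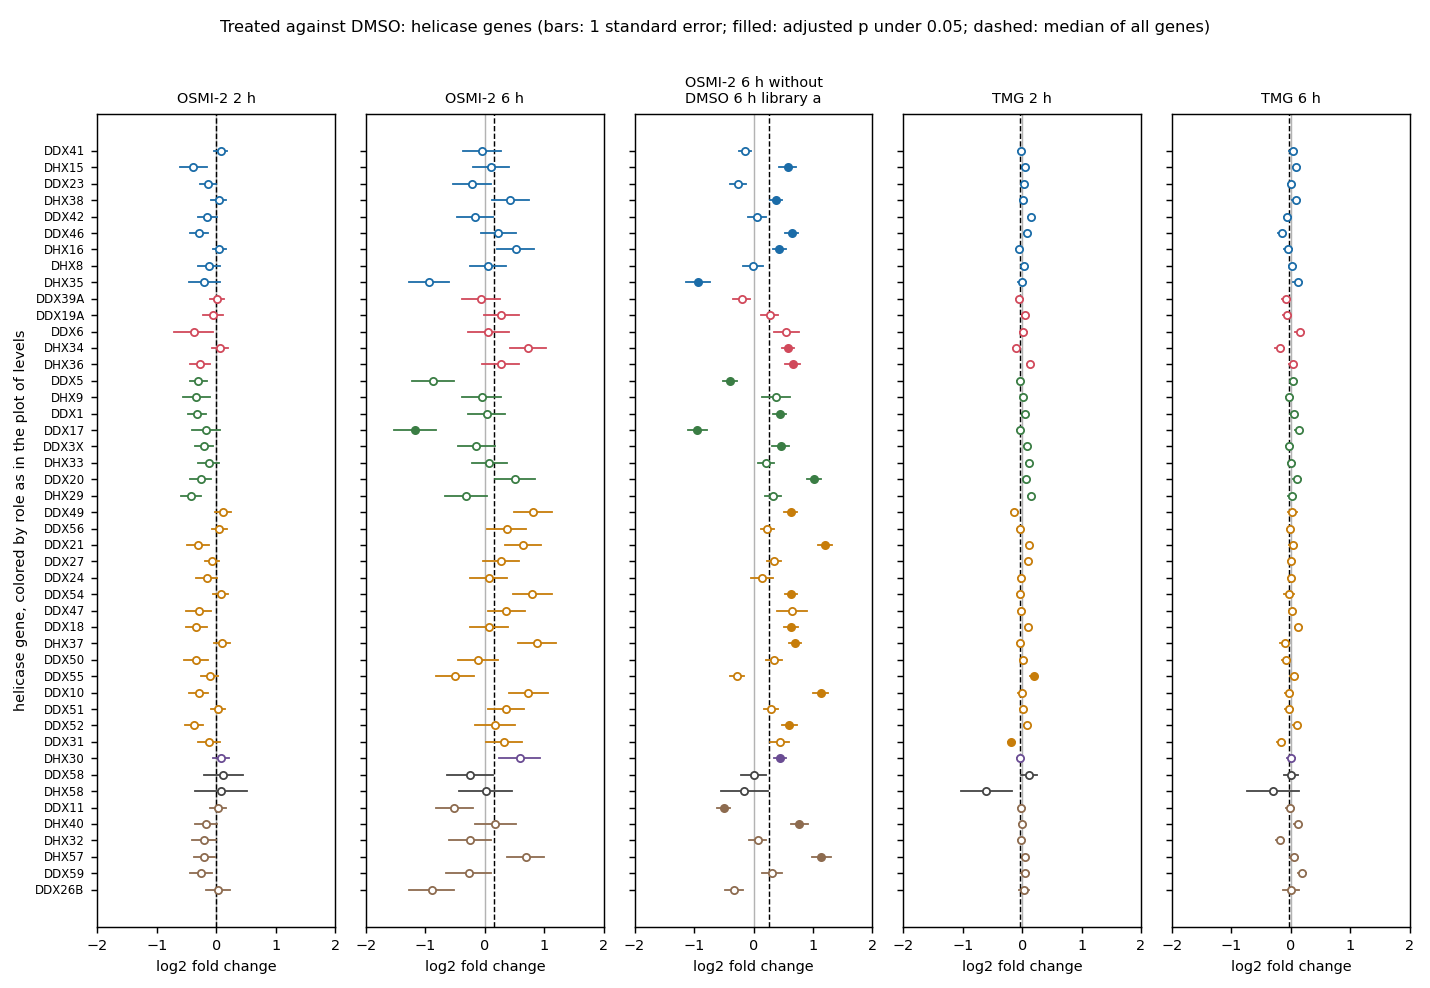
Log2 change of each helicase gene with OSMI-2 or TMG against DMSO at 2 h and 6 h, and at 6 h of OSMI-2 without library a of DMSO (edgeR, TMM over genes and introns). Genes are colored by role, bars are 1 SE, filled points passed the adjusted p of 0.05 and dashed lines are the median of all genes. DDX17 at 6 h of OSMI-2 and DDX55 and DDX31 at 2 h of TMG passed, and 23 passed without library a.

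Several more helicases passed only without library a. DDX20, a member of the SMN complex, had 27.01, 13.0 and 12.3 CPM with DMSO at 6 h and 23.6 and 25.9 CPM with OSMI-2. DHX57 had 44.7, 19.3 and 26.02 CPM with DMSO and 47.9 and 48.6 CPM with OSMI-2. DHX40 had 27.8, 10.3 and 13.1 CPM with DMSO and 18.5 and 20.1 CPM with OSMI-2. Library a was the highest DMSO library in all 3 genes, above the OSMI-2 libraries for DDX20 and DHX40. Without it the log2 changes were 1.02 ± 0.125 for DDX20, 1.14 ± 0.159 for DHX57 and 0.77 ± 0.149 for DHX40 (SE, edgeR adjusted p = 0.00252, 0.00316 and 0.00740). For DDX49 and DDX54, nucleolar helicases, library a was the lowest instead: DDX49 had 138, 244 and 258 CPM with DMSO and 349 and 401 CPM with OSMI-2, and DDX54 had 213, 358 and 378 CPM with DMSO and 523 and 579 CPM with OSMI-2. Both OSMI-2 libraries lay above all DMSO libraries in these 2 genes, with log2 changes of 0.62 for DDX49 and 0.63 for DDX54 without library a. DDX11 had 184, 195 and 202 CPM with DMSO and 124 and 148 CPM with OSMI-2, without overlap, and a log2 change of -0.50 ± 0.113 (SE, edgeR adjusted p = 0.0124) without library a.

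The other roles had no helicase past the test at 6 h of OSMI-2 with all libraries, apart from DDX17. Of the 9 spliceosome helicases 5 had a positive log2 change, with a median of 0.05. DHX38, which remodels the spliceosome before the second catalytic step, had 166, 210 and 211 CPM with DMSO and 261 and 267 CPM with OSMI-2. The 2 groups did not overlap, and the log2 change of DHX38 was 0.43 (edgeR adjusted p = 0.414) with library a and 0.37 (adjusted p = 0.0230) without it. DDX46 (0.23), DHX15 (0.11), DHX8 (0.05) and DDX23 (-0.21) had log2 changes with overlapping groups. Without library a DDX46 (0.64, edgeR adjusted p = 0.00561) and DHX15 (0.58, adjusted p = 0.0170) passed, and DHX8 (-0.01) and DDX23 (-0.26) did not. For DDX46, which had 99.9, 51.2 and 55.9 CPM with DMSO and 78.6 and 83.0 CPM with OSMI-2, library a lay above and libraries b and c below the OSMI-2 libraries. DHX35, a component of the catalytic spliceosome, had 30.1, 30.1 and 35.6 CPM with DMSO and 19.4 and 13.9 CPM with OSMI-2. Its groups did not overlap, and its log2 change was -0.94 (edgeR adjusted p = 0.075) with library a and -0.93 ± 0.198 (SE, adjusted p = 0.0103) without it.

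Among helicases of transcription, microRNA processing and translation, 3 of 8 had a positive log2 change, with a median of -0.10. DHX9, a helicase of long duplexes, had a log2 change of -0.05 with library a and 0.37 without it (edgeR adjusted p = 0.232). DDX3X, a helicase of translation initiation, had -0.14 with library a and 0.45 without it (adjusted p = 0.0450), and 0.05 with median-of-ratios factors. The signs of both turned on that library, and that of DDX3X also on the scaling. Of the mRNA export and decay helicases 4 of 5 tested were positive, with a median of 0.27. DDX6, a helicase of decapping and P bodies, had a log2 change of 0.05 with library a and 0.55 without it (edgeR adjusted p = 0.0734). DHX36, which unwinds G-quadruplexes, had 0.27 with it and 0.66 without it (adjusted p = 0.00684). DDX58 had -0.25 (adjusted p = 0.741) and, without library a, 0.00. Over the 46 helicases, leaving out library a turned 9 signs.

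The helicase genes differed little between TMG and DMSO. At 2 h, 2 of 46 passed, beside 7.91% of all 12365 genes. DDX55, a ribosome biogenesis helicase, had 53.7, 53.2 and 53.1 CPM with DMSO and 62.4, 59.3 and 61.1 CPM with TMG. All TMG libraries of DDX55 lay above all DMSO libraries, and the log2 change was 0.19 ± 0.0536 (SE, edgeR adjusted p = 0.0251). DDX31, a nucleolar helicase, had 61.8, 58.9 and 55.0 CPM with DMSO and 50.4, 50.4 and 53.5 CPM with TMG. The groups did not overlap, and its log2 change was -0.19 ± 0.0574 (SE, edgeR adjusted p = 0.0420). The call of DDX55 was lost without any single library except DMSO a, and that of DDX31 without any single library except DMSO c.

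For the other helicases of known role, the log2 changes at 2 h of TMG were 0.08 for DDX46, 0.11 for DDX21, 0.13 for DHX36, 0.12 for DDX58, 0.08 for DDX3X and within 0.04 of 0 for DDX23, DHX15, DHX8, DHX38, DDX5, DDX17, DHX9 and DDX6. None of these passed the test.

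At 6 h of TMG, 0 of 46 helicase genes passed, beside 6.1% of all 12090 genes. DESeq2 called 0 as well, and 7 helicases and 2715 of all genes had p under 0.05 before adjustment. Without library a of DMSO, 2 helicases passed by edgeR, beside 10.3% of all genes. DDX46 had 248, 255 and 269 CPM with DMSO and 234, 229 and 230 CPM with TMG. All TMG libraries of DDX46 lay below the DMSO libraries, with a log2 change of -0.16 ± 0.0552 (SE, edgeR adjusted p = 0.104). DDX17 changed by 0.13, DDX6 by 0.15, DHX15 by 0.09 and DDX5 by 0.04 (log2), and none of these passed. Both medians, 0.00 for the helicases and -0.03 for all genes, were near 0.

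The detained introns moved far more than the genes. They made up a mean of 1.21% ± 0.179 (SD, n = 3) of the helicase gene counts with DMSO at 2 h in the OSMI-2 experiment and 1.11% ± 0.0323 (SD, n = 3) with OSMI-2 at 2 h. These pooled shares lean on DDX17 E004 and E006, the introns with the most counts, up to 7240 and 4611 in a library. DHX8 E025 came next, with up to 1044. At 6 h the DMSO libraries held 5.05%, 4.72% and 3.59%, and the OSMI-2 libraries 1.33% and 1.25%. All DMSO libraries at 6 h thus lay far above every other library of that experiment, and the OSMI-2 libraries at 6 h lay among those of 2 h. In the TMG experiment, the DMSO libraries held 1.23%, 1.41% and 1.33% at 2 h and 1.39%, 1.97% and 1.61% at 6 h. With TMG the share was 1.57%, 1.62% and 1.51% at 2 h, above all DMSO libraries of 2 h, and 1.84%, 2.22% and 1.98% at 6 h, where library b of DMSO overlapped.

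The 56 introns were 108 to 10358 bases wide. DDX11, a helicase of sister chromatid cohesion, held 7 of them, and DDX46, DHX30 and DHX35 held 3 each. In DMSO libraries at 2 h of the TMG experiment, the mean share of the gene ran from 0.111% for DDX11 E025 to 5.71% for DHX8 E025.

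At 2 h, OSMI-2 changed 0 of the 41 helicase introns that passed the filter on low counts, by edgeR, beside 0.131% of all introns. The 2 helicase introns with p under 0.05 before adjustment compare with 90 of all 3043, and DESeq2 called 0 helicase introns. As a share of their gene (limma on the log2 ratio of intron to gene counts), 0 of 41 changed as well, beside 0.0643% of all, and 1 had p under 0.05 before adjustment.

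At 6 h, 52 of the 56 helicase introns fell with OSMI-2 by edgeR, beside 86.4% of all introns that fell, and none rose. Without library a of DMSO 53 of 56 fell, beside 83.7%. The median log2 change was -1.73 for the helicase introns and -1.55 for all. Per gene, 51 of 56 fell by limma, beside 89.2% of all, with medians of -1.67 and -1.63. Without library a of DMSO 50 of 55 fell per gene, beside 86.8%, and all 50 had fallen with it. The share of introns that fell was thus near that of the whole table. Where the scaling was set by the introns themselves, which puts their median change near 0, 8 of 56 passed as lower and 5 as higher, beside 5.83% and 10.4% of all introns. The 5 higher ones were DHX8 E025 (1.63), DHX8 E026 (1.72), DHX37 E009 (0.81), DHX37 E013 (0.87) and DHX30 E021 (0.77) on the log2 scale.

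**Figure D3:**
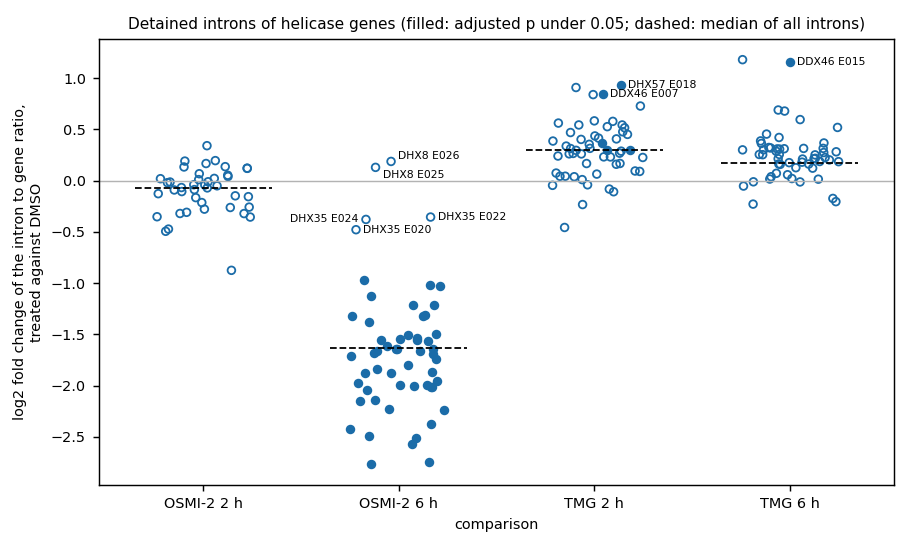
Log2 change of each of the helicase introns per gene count with OSMI-2 or TMG against DMSO at 2 h and 6 h (limma), 1 point per intron, spread sideways for view, with filled points for introns past the adjusted p of 0.05 and dashed lines at the median of all introns. At 6 h of OSMI-2, 51 of 56 points lie filled below 0, and those of DHX8 and DHX35 stand above the rest; DDX46 E015 is the filled point at 6 h of TMG.

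The order of the libraries was the same for most introns. In 51 of the 56 helicase introns (91.1%), every DMSO library at 6 h had a higher share of its gene than each of the other 8 libraries of the OSMI-2 experiment, as it did in 84.8% of all 4616 introns counted at 10 or more on average. The OSMI-2 libraries at 6 h overlapped the range of the 2 h libraries in 49 helicase introns, lay above it in 4 and below it in 3. These are 87.5%, 7.14% and 5.36%, beside 81.1%, 12.4% and 6.5% of all introns.

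DDX46 carried the 3 introns with the largest falls per gene among the 56, and introns that rose with TMG. The gene lies on the plus strand of chromosome 5, and in hg19 its detained introns are E007 (chr5:134113416-134116822), E015 (chr5:134124282-134124905) and E018 (chr5:134125913-134126159). The bins E015, E016, E017 and E018 lie between the exons E014 and E019, with a stretch between E016 and E017 that is in no bin. The annotation used here for sequence, GENCODE release 29 on GRCh38, joins E014 to E019 directly in the protein-coding transcript DDX46-202. Transcript DDX46-207, of the class nonsense_mediated_decay, joins E014 to E017, and DDX46-208, without a coding frame in the annotation, joins E014 to E016 and E016 to E019. The sequences across these joins are shown because they tell what each join does to the reading frame. Capitals mark the codon across the join where the frame goes on, or the first stop codon.
DDX46 E014 to E019: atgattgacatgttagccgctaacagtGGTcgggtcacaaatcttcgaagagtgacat
DDX46 E014 to E016: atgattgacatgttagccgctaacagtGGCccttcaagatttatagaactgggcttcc
DDX46 E014 to E017: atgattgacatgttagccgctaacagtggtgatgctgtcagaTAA
DDX46 E016 to E019: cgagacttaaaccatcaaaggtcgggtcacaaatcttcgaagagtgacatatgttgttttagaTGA

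The E014 part of the first 3 sequences lies at chr5:134788564-134788591 of GRCh38. E017 holds an in-frame stop codon 14 bases after the join. E016 is 49 bases long, and after it the frame of E019 is shifted and meets a stop codon after 43 bases. The sequence of E015 itself is not printed here.

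DDX46 E015 took 0.163%, 0.138% and 0.157% of the gene count with DMSO at 2 h in the OSMI-2 experiment and 0.119%, 0.122% and 0.128% with OSMI-2. At 6 h it took 0.664%, 0.809% and 0.641% with DMSO and 0.107% and 0.0969% with OSMI-2. The DMSO libraries at 6 h stood apart from all others, and the log2 change per gene was -2.57 ± 0.436 (SE, limma adjusted p = 1.40e-08). These shares rest on few reads, 19 to 36 counts in the DMSO libraries at 6 h and 4 to 6 in the others.

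In the TMG experiment, the share of DDX46 E015 was 0.133%, 0.273% and 0.295% with DMSO and 0.319%, 0.251% and 0.357% with TMG at 2 h, and the groups overlapped. At 6 h it was 0.249%, 0.176% and 0.266% with DMSO and 0.411%, 0.584% and 0.574% with TMG. All TMG libraries lay above all DMSO libraries, with a log2 change per gene of 1.16 ± 0.276 (SE, limma adjusted p = 0.0227). This was the only helicase intron past the test at 6 h of TMG, 1 of 54 beside 0.167% of all introns that rose. The counts behind it were 20 to 31 with DMSO and 46 to 56 with TMG. The call was lost without DMSO c (adjusted p = 0.0621), without TMG b (0.638) and without TMG c (0.506), and E015 did not pass on its own level by edgeR (log2 change 1.01, adjusted p = 0.111). By the authors' deposited adjusted p-values, 0 of 24 helicase introns with an adjusted p passed at 6 h of TMG, beside 0.541% of all.

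DDX46 E007, 3407 bases wide, followed the same course at higher counts. In the OSMI-2 experiment it took 0.285%, 0.138% and 0.274% of the gene with DMSO at 2 h, 1.79%, 2.57% and 1.42% with DMSO at 6 h and 0.240% and 0.274% with OSMI-2 at 6 h. Only the DMSO libraries at 6 h were high, and the log2 change per gene was -2.77 ± 0.353 (SE, limma adjusted p = 8.67e-14). With TMG at 2 h DDX46 E007 took 0.514%, 0.376% and 0.482%, all above the 0.218%, 0.243% and 0.287% of DMSO. The log2 change per gene was 0.85 ± 0.215 (SE, limma adjusted p = 0.0145). At 6 h the shares were 0.378%, 0.599% and 0.481% with DMSO and 0.715%, 0.958% and 0.677% with TMG, again without overlap. The log2 change per gene of DDX46 E007 at 6 h, 0.69 ± 0.247 (SE), did not pass (limma adjusted p = 0.801).

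The short bins of DDX46 beside E015, which the authors did not mark as detained, also had their highest mean shares with DMSO at 6 h in the OSMI-2 experiment. E017, the 117-base bin with the stop codon, took 0.793%, 0.879% and 0.675% of the gene with DMSO at 6 h and 0.187% and 0.129% with OSMI-2. With TMG at 2 h E017 took 0.364%, 0.367% and 0.264%, against 0.152%, 0.122% and 0.113% with DMSO. At 6 h of TMG it took 0.429%, 0.419% and 0.533%, against 0.189%, 0.176% and 0.197%. In all 3 comparisons the groups did not overlap. The authors' deposited table gives log2 changes in bin usage of -2.34 (adjusted p = 1.25e-08) at 6 h of OSMI-2 and 1.37 (adjusted p = 0.000337) at 2 h of TMG for E017. It gives -2.96 (adjusted p = 7.30e-06) for E016 at 6 h of OSMI-2. The exon E014 held between 2.46% and 3.55% of the gene in every library of both experiments. A read counts in each bin it touches, so neighbouring bins share reads and are not independent.

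DDX46 E018, just before E019, took 0.701%, 0.879% and 0.844% of the gene with DMSO at 6 h in the OSMI-2 experiment and 0.213% and 0.0484% with OSMI-2, without overlap. At 6 h of TMG it took 0.277%, 0.430% and 0.308%, against 0.112%, 0.176% and 0.146% with DMSO. These groups did not overlap either, but the log2 change per gene of 1.18 ± 0.308 (SE) missed the threshold (limma adjusted p = 0.0822).

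**Figure D4:**
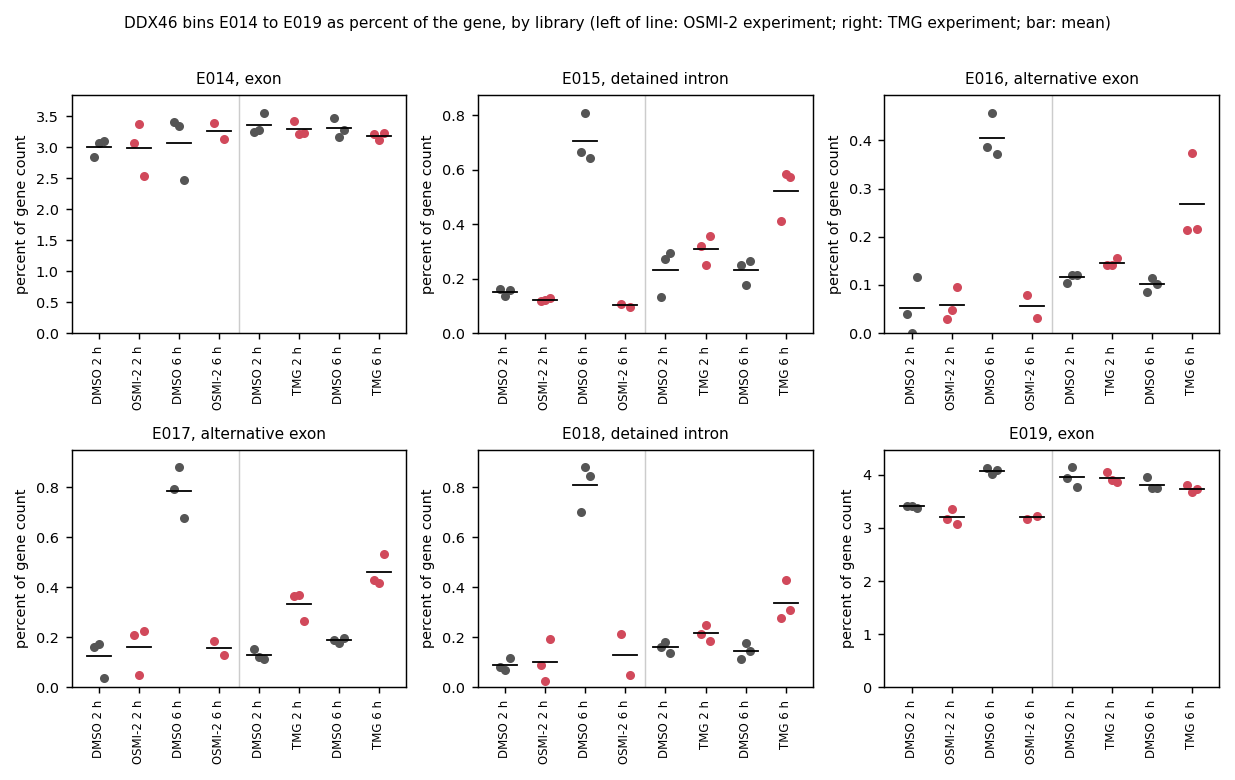
Share of the DDX46 gene count in bins E014 to E019, in percent, by library and group in both experiments, with bars at group means. E015 to E018 are high in DMSO at 6 h of the OSMI-2 experiment and, at a lower level, in TMG at 6 h, while E014 stays between 2.46% and 3.55%.

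The other spliceosome helicases carried introns that fell with OSMI-2 at 6 h. DDX23 E003 (chr12:49225100-49225860, hg19) lies in the gene of the helicase that swaps U1 for U6 at the 5′ splice site. It took 0.785%, 0.896% and 0.686% of the gene with DMSO and 0.116% and 0.153% with OSMI-2, without overlap, and its log2 change per gene was -2.49 ± 0.331 (SE, limma adjusted p = 7.35e-13). DHX38 E031 (chr16:72144977-72146311) took 1.06%, 0.797% and 0.850% with DMSO and 0.169% and 0.206% with OSMI-2. Its log2 change per gene was -2.23 ± 0.329 (SE, limma adjusted p = 1.07e-10), and DHX38 E017 changed by -2.04 ± 0.317 (SE). DDX42 works with the SF3b part of U2 snRNP, and its intron E006 changed by -2.02 ± 0.298 (SE). Among all helicase introns averaging 50 counts or more, these 4 and DDX11 E026 (-2.14 ± 0.317, SE) had the largest falls per gene. By level rather than per gene, the largest falls were those of DDX23 E003 (-2.74), DDX11 E026 (-2.66), DDX11 E030 (-2.49), DDX11 E028 (-2.43) and DDX55 E007 (-2.35, log2, edgeR).

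DHX15 takes the spliceosome apart after splicing, and its intron E006 (chr4:24538797-24541730, minus strand) moved both ways. It took 5.01%, 3.64% and 4.71% of the gene with DMSO at 6 h in the OSMI-2 experiment and 2.00% and 2.33% with OSMI-2. With TMG at 2 h DHX15 E006 took 3.44%, 3.47% and 3.37%, against 2.61%, 2.85% and 2.54% with DMSO. The groups did not overlap in either comparison, and the log2 change per gene at 2 h of TMG was 0.36 ± 0.0976 (SE, limma adjusted p = 0.0188). At 6 h of OSMI-2 the log2 change per gene was -1.02 (limma adjusted p = 0.000892), and it passed without DMSO library a too (-0.94, adjusted p = 0.00278). By level, DHX15 E006 had -0.98 (edgeR adjusted p = 0.00149) with library a and -0.39 (adjusted p = 0.225) without it.

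DHX8, the helicase that releases spliced mRNA, did not show the fall that most of the introns had at 6 h of OSMI-2. Its bin E025 (chr17:41601554-41602920) held 8.55% to 11.9% of the gene in every library of the OSMI-2 experiment and 4.89% to 6.54% in every library of the TMG experiment. At 6 h it took 8.55%, 10.4% and 9.46% with DMSO and 10.1% and 10.6% with OSMI-2, and the groups overlapped. The log2 change per gene was 0.13 ± 0.203 (SE, limma adjusted p = 0.542) for E025 and 0.19 ± 0.277 (SE, adjusted p = 0.518) for E026. The authors marked both bins as detained introns, while in GENCODE release 29 the bins E024 to E026, 2033 bases in all, fall by their lengths within the 2043-base last exon of the protein-coding transcript DHX8-201. The introns of DHX35 also missed the test per gene, at -0.48 (E020), -0.36 (E022) and -0.38 (E024) on the log2 scale, and passed on their own level, where the gene itself had -0.94.

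**Figure D5:**
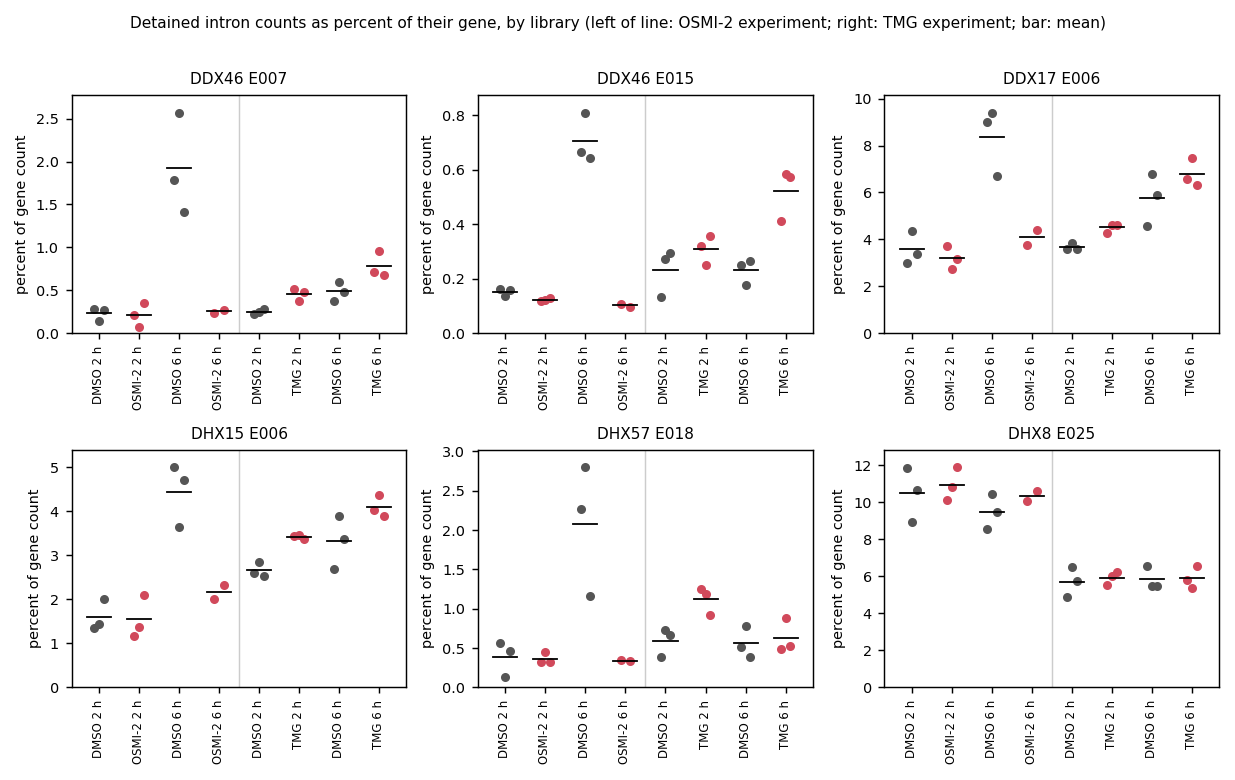
Share of the gene count in 6 helicase introns, in percent, by library, with the OSMI-2 experiment left and the TMG experiment right of the line and bars at group means. In 5 of the 6 the DMSO libraries at 6 h of the OSMI-2 experiment are high against the rest of that experiment, and DHX8 E025 shows a step only between the experiments.

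Introns of helicases outside the spliceosome had the same order of groups at 6 h of OSMI-2. DDX59, which is linked to limb and face development, had the steepest rise in share: E007 took 0.983%, 1.82% and 0.664% of the gene with DMSO at 2 h and 12.2%, 16.9% and 10.9% at 6 h, against 1.81% and 2.36% with OSMI-2 at 6 h. The DMSO libraries at 6 h stood alone, and the log2 change per gene was -2.51 ± 0.372 (SE, limma adjusted p = 1.09e-10). The gene is low, at 5.00 to 13.0 CPM in these DMSO libraries. DDX26B was taken in by its name alone. Its intron E012 took 14.7%, 14.4% and 12.1% with DMSO at 6 h and 5.67% and 5.66% with OSMI-2, without overlap. The log2 change per gene of DDX26B E012 was -1.22 ± 0.345 (SE).

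In the nucleolar helicases, DDX18 E013 took 2.25%, 3.92% and 3.26% of its gene with DMSO at 6 h and 1.16% and 0.888% with OSMI-2, with a log2 change per gene of -1.55 ± 0.352 (SE). DDX31 E005 took 8.04%, 9.54% and 5.64% with DMSO and 2.66% and 1.96% with OSMI-2, a change of -1.71 ± 0.307 (SE). In both, all DMSO libraries lay above both OSMI-2 libraries. DDX39A, an mRNA export helicase, held in E007 2.83%, 2.13% and 2.22% with DMSO and 0.766% and 1.35% with OSMI-2, a change of -1.22 ± 0.262 (SE). DHX36 E004 took 3.60%, 3.04% and 2.29% with DMSO and 0.897% and 0.972% with OSMI-2, a change of -1.61 ± 0.351 (SE). The groups were apart in these as well. DHX30, a helicase of the mitochondrial ribosome, held 1.203%, 0.911% and 0.826% in E021 with DMSO and 0.425% and 0.354% with OSMI-2, a change of -1.32 ± 0.257 (SE). DHX29, which helps the ribosome scan structured leaders, held 4.85%, 5.52% and 5.43% in E006 with DMSO and 1.86% and 1.70% with OSMI-2, a change of -1.50 ± 0.365 (SE). Each of these introns passed per gene by limma.

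DDX17 held the detained introns with the most counts. It lies on the minus strand of chromosome 22, with E006 at chr22:38886442-38888060 and E004 at chr22:38884121-38885227 in hg19. In GENCODE release 29 both fall by their lengths within a single 4237-base exon of transcript DDX17-201, of the class retained_intron. The ends of E006 are shown in capitals, the first and the last 2 bases of the intron, to show that it has the GT and AG ends of a common intron (GRCh38, minus strand, chr22:38492026-38492070 and chr22:38490422-38490466).
DDX17 E007 to E006: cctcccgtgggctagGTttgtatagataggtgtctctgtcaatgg
DDX17 E006 to next exon: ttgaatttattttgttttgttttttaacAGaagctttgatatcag

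DDX17 E006 took 8.99%, 9.39% and 6.71% of the gene with DMSO at 6 h in the OSMI-2 experiment and 3.75% and 4.42% with OSMI-2. The 2 h libraries held 2.73% to 4.34%. Only the DMSO libraries at 6 h were high, as was the gene itself: with DMSO it stood at 260, 278 and 161 CPM at 2 h and at 946, 682 and 686 CPM at 6 h. With TMG at 2 h DDX17 E006 took 4.29%, 4.63% and 4.60%, against 3.58%, 3.84% and 3.58% with DMSO. These groups did not overlap, and the log2 change per gene was 0.30 ± 0.0744 (SE, limma adjusted p = 0.0140). E004 took 5.19%, 5.38% and 4.68% with TMG and 4.02%, 4.17% and 4.22% with DMSO, a log2 change per gene of 0.29 ± 0.0731 (SE, adjusted p = 0.0138). DDX5 has no bin marked as detained. In the authors' deposited table, 10 of its bins passed at 6 h of OSMI-2, E003 (-1.12), E004 (-1.17) and E005 (-0.53) with lower log2 usage and 7 others with higher usage, from 0.12 to 0.30. DDX5 E003 held 3.26%, 3.29% and 3.51% of the gene with DMSO at 6 h and 1.45% and 1.67% with OSMI-2, without overlap.

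At 2 h of TMG, 6 of 54 helicase introns rose by edgeR, beside 9.75% of all introns, with medians of 0.33 and 0.29 (log2). They were DDX46 E007 (0.95), DHX57 E018 (0.95), DDX42 E008 (0.46), DHX15 E006 (0.41) and DDX17 E004 and E006 (0.27 each). Per gene 5 of 54 rose by limma, the same introns without DDX42 E008, beside 10.2% of all. DHX57 is a helicase of little known function. Its intron E018 (chr2:39075545-39081195) took 1.25%, 1.19% and 0.926% with TMG and 0.383%, 0.732% and 0.661% with DMSO. The groups did not overlap, and the log2 change per gene was 0.94 ± 0.232 (SE, limma adjusted p = 0.0138). DDX42 E008 took 2.61%, 2.61% and 2.25% with TMG and 2.12%, 2.00% and 1.87% with DMSO. Leaving out single libraries moved the count by level from 6 to 3 (without DMSO c, beside 3.82% of all introns, or TMG a, 2.89%), 2 (without TMG b, 1.45%) or 11 (without TMG c, 13.4%). The count per gene moved from 5 to 0 without TMG a (0.726% of all) and 1 without TMG b (0.849%). With the scaling set by the introns themselves, none of the 6 passed, DDX17 E004 (-0.03) and E006 (-0.02) changed sign and DDX1 E022 passed as lower (-0.71, adjusted p = 0.00110).

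At 6 h of TMG, 0 of 54 helicase introns passed by edgeR, beside 0.191% of all, with 8 helicase introns and 327 of all introns at p under 0.05 before adjustment. DESeq2 called 0 helicase introns. The median log2 change was 0.22 for the helicase introns and 0.15 for all, and 47 of the 54 were positive. Library b of DMSO, which had the highest intron share of its group, set this count: without it 11 of 55 helicase introns passed by level, beside 7.76% of all, and 11 of 54 per gene, beside 6.6%.

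Time in DMSO was compared next, since the DMSO libraries at 6 h differed from those at 2 h. The DMSO libraries at 6 h are the same ones that served as controls for the drugs, so the falls with OSMI-2 and the rises over time in DMSO rest on shared libraries and are not independent. In the OSMI-2 experiment, 52 of 56 helicase introns were higher at 6 h by edgeR, beside 88.5% of all, with medians of 1.83 and 1.70 (log2). The largest rises among introns averaging 50 counts or more were those of DDX11 E026 (2.85), DDX11 E028 (2.57), DDX17 E006 (2.55), DDX17 E004 (2.26) and DDX11 E030 (2.09). Of the genes, 2 of 46 were higher at 6 h, beside 4.62% of all, namely DDX17 (1.33 ± 0.283, SE) and DDX58 (1.34 ± 0.374, SE). Another 4 were lower, beside 13.9% of all, namely DDX47 (-1.02), DDX20 (-0.84), DHX15 (-0.83) and DDX10 (-0.81, log2). Without library a of DMSO at 6 h, 4 genes were higher (8.22% of all) and 14 lower (28.8% of all), and 52 introns were higher, beside 87.4%. The 6 genes named passed without it as well, while DHX15 E006 (0.75 with it, 0.24 without, log2) did not. Without DMSO 2 h a or b 1 gene passed, beside 4.16% and 8.52% of all, and without DMSO 6 h b or c 3 passed, beside 12.9% and 14%.

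In the TMG experiment, 9 of 51 helicase introns were higher at 6 h of DMSO, beside 21% of all, and none was lower. They were DHX37 E009 (1.40), DDX46 E007 (1.06), DDX55 E007 (0.84), DDX11 E026 (0.75), DDX24 E004 (0.61), DHX36 E004 (0.57), DHX15 E006 (0.44), DDX17 E006 (0.42) and DDX17 E004 (0.40) on the log2 scale. The count fell to 2 without DMSO 2 h a, DMSO 2 h b or DMSO 6 h b, to 3 without DMSO 6 h c and to 4 without DMSO 2 h c, beside 8.32% to 10.9% of all introns. Of the genes 7 of 46 were higher, beside 16.3% of all, and 6 lower, beside 29.6%, and 8 passed in all without DMSO 2 h b or DMSO 6 h b, beside 37.3% and 37.5%. The largest rises were those of DDX58 (0.79), DHX29 (0.51), DHX36 (0.35), DDX50 (0.32) and DDX10 (0.31). The largest falls were those of DDX56 (-0.29), DDX17 (-0.23), DDX51 (-0.21), DDX31 (-0.19) and DDX3X (-0.18). DDX58 had 3.30, 3.12 and 3.66 CPM at 2 h and 5.61, 6.15 and 6.09 CPM at 6 h, without overlap. It was thus higher at 6 h in the DMSO libraries of both experiments, while DDX17 was higher in one and lower in the other.

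The authors' deposited table calls 51 of 56 helicase introns at 6 h of OSMI-2, beside 80.5% of all detained introns, 0 of 56 at 2 h (0.0842% of all) and 4 of 54 at 2 h of TMG (3.77% of all), namely DDX17 E004 and E006, DDX46 E007 and DHX15 E006. Outside the detained introns, the authors' deposited table has 47 of 887 tested helicase bins past an adjusted p of 0.05 at 6 h of OSMI-2. Of all such bins 4.08% passed. Of the 47, 26 had higher and 21 lower usage. Most of the 26 were bins of DDX5 and of DDX17 (E007 to E015, E017 and E018, log2 0.11 to 0.44), while DDX17 E005 was lower (-1.05). Usage is relative to the gene, so rises and falls within a gene are not independent. At 2 h of OSMI-2 the authors' deposited table has 0 of 896 (0.00893% of all), at 2 h of TMG 5 of 855 (0.14%) and at 6 h of TMG 0 of 791 (0.0565%). The 5 bins at 2 h of TMG are DDX46 E017 (1.37), DDX24 E005 (0.58), DDX20 E001 (-0.28), DHX30 E015 (-0.13) and DDX5 E011 (-0.09) in log2 usage. DDX24 E005, next to the detained intron E004 of this ribosome biogenesis helicase, had a log2 usage of -1.79 at 6 h of OSMI-2. It took 1.82%, 1.35% and 1.17% of the gene with DMSO at 6 h and 0.414% and 0.418% with OSMI-2, without overlap.

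The effects of the drugs were set against each other with an interaction term in edgeR, over libraries of both experiments, so drug and experiment cannot be told apart in these differences. At 6 h, the OSMI-2 effect was higher than the TMG effect for 6 of 46 helicase genes, beside 16.9% of all, and lower for 2, beside 2.98%. For the introns it was lower for 52 of 56, beside 73.5% of all. Without library a of DMSO at 6 h in the OSMI-2 experiment, 38 genes were higher (72.9% of all) and 2 lower (2.02% of all), and 36 introns were lower (44.7% of all). Leaving out OSMI-2 6 h b or DMSO 6 h a of the TMG experiment left 0 genes, beside 0.174% and 4.3% of all, and leaving out any other library of the TMG experiment or OSMI-2 6 h a left 1 to 4, beside 4.78% to 11.3%. At 2 h the difference passed for 0 of 46 genes, beside 0% of all, with 2 at p under 0.05 before adjustment, and for 0 of 54 introns, beside 0.26%, with 10 at p under 0.05. With median-of-ratios factors it passed for 0 of each at 2 h.

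Helicases outside the DDX and DHX names and partner proteins were taken as 2 further lists. Of 18 other helicases 15 are listed, and EIF4A1, IFIH1 and TDRD9 were not matched by name. None of the 15 genes passed with OSMI-2 at 2 h (0% of all genes) or 6 h (4.87%), or with TMG at 6 h (6.1%). HELZ was higher at 2 h of TMG (0.26, edgeR adjusted p = 0.00659), beside 1.25% of all genes. Of the 20 detained introns of these other helicases all 20 fell at 6 h of OSMI-2, beside 86.4% of all introns. At 2 h of TMG 3 of 18 rose, beside 9.75% of all. Of 22 partner genes of the helicases, RBM5, a splicing regulator, was higher at 2 h of TMG (0.20, edgeR adjusted p = 0.0206), beside the same 1.25%. No others of the 22 partner genes passed in any of the 4 comparisons. Of their 23 introns 22 fell at 6 h of OSMI-2 and 2 rose at 2 h of TMG, beside the same shares of all introns. Among the 6 markers of the line, NEFM was higher at 6 h of OSMI-2 (1.53, log2), beside 2.5% of all genes. KRT8 was lower at 2 h of TMG (-0.31, log2), beside 6.66% of all genes. At 6 h of TMG, INA (-0.37), KRT18 (-0.37) and VIM (-0.22) were lower on the log2 scale, beside 4.9% of all genes. The part of the markers in the helicase results was not tested. The 2 lists and the markers were not refitted without library a of DMSO at 6 h in the OSMI-2 experiment. Whether their results at 6 h of OSMI-2 turn on that library was not tested.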

How the data were processed

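Poly(A) RNA of HEK293T cells was sequenced from stranded libraries, per the labels' protocols, after OSMI-2, TMG or DMSO for 2 h or 6 h. The protocols name Trizol or a column kit without saying which sample had which. Reads were aligned with STAR to hg19, per the submitters' processing notes. The annotation, the counting tool and its use of strand are not given in the sources used here. The authors deposited 4 tables of unnormalized counts per bin and library, with their own log2 fold changes of bin usage and adjusted p-values, in the columns of DEXSeq output per the file headers. All 23 count columns were used and 0 were left out. Per-lane files were not used. Columns were matched to groups by name, and their letters name libraries only.

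The helicase genes, their roles and the gene lists were chosen with earlier results of these data known. Bins not marked as detained were summed to a gene's count. Since reads can touch several bins, these sums exceed read numbers. Genes and detained introns were filtered and fitted apart in edgeR 4.0.16 (filterByExpr, quasi-likelihood), with TMM factors set over both. Drug comparisons were fitted within each drug and time, and comparisons of times within the DMSO libraries of an experiment. P-values were adjusted by Benjamini-Hochberg over genes and introns apart. The difference between drugs was an interaction term, which compares 2 experiments. Intron shares were tested with limma 3.58.1 on log2((intron + 1)/(gene + 1)) for introns averaging 10 counts or more. CPM and log2 changes use TMM-scaled library totals, with factors set within each drug and time for CPM and within each fit for log2 changes. DESeq2 1.42.0, other scalings and filters, and leaving out each library were alternatives (R 4.3.3). Scripts were also run on simulated counts with a fixed spread and no outlying library. That run does not show how the tests behave at the spread of these libraries. Named are helicases past the threshold where at most 10 were, otherwise the 5 largest rises and falls among those averaging 50 counts or more, and a set of role examples. Other features were named after their values were seen. Sequences are from GENCODE release 29 (GRCh38), matched to bins by exon lengths and spacing. Intervals are not given since replicate spread exceeds counting error.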

Additional observations from a re-analysis of the deposited data

Results flagged for a closer look

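At 6 h, 8 helicase genes and 52 helicase introns differed between the OSMI-2 and TMG effects by edgeR's interaction term, which spans 2 experiments. Of all genes 19.9% differed, and of all introns 74.1%. The OSMI-2 effect was above the TMG effect (log2 difference, edgeR adjusted p) for DHX37 (1.13, 0.0210), DHX34 of nonsense-mediated decay (1.07, 0.0192), DDX54 (0.99, 0.0332), DDX49 (0.94, 0.0414), DDX10 (0.92, 0.0491) and DHX16 of spliceosome activation (0.72, 0.0439). It was below for DDX17 (-1.14, 0.0156) and DHX35 (-0.90, 0.0238). Without library a of DMSO at 6 h in the OSMI-2 experiment all 8 passed with the same sign, with DDX17 at -0.53 and DDX10 at 1.71. Of the 52 introns 36 passed. Without that library 74.9% of all genes and 46.5% of all introns passed. DHX37 had log2 changes of 0.88 with OSMI-2 and -0.10 with TMG, and DDX17 of -1.17 and 0.13. Among introns averaging 50 counts or more, the largest differences were those of DDX46 E007 (-2.97), DDX23 E003 (-2.74), DDX11 E026 (-2.61), DDX11 E030 (-2.57) and DDX55 E007 (-2.53). DDX46 E007 fell at 6 h of OSMI-2, while with TMG at 6 h all 3 libraries lay above those of DMSO, a change that did not pass (limma adjusted p = 0.801).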

How the results depend on the processing

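No paired analysis was possible because the count columns carry letters and not the labels' replicate numbers. The genes called at 6 h of OSMI-2 (1) became 0 with median-of-ratios factors (7.58% of all genes called), 2 with TMM over genes only (4.03%), 2 with DESeq2 (5.61%) and 21 with all libraries in 1 fit (47.1%). The introns called there (52) became 13 with TMM over detained introns only (16.2% of all introns), which by construction centres the introns. At 2 h of TMG, 2 genes became 0 and 6 introns became 0 with all libraries in 1 fit (0% of all genes and 0.0637% of all introns), and the introns became 3 with DESeq2 (2.49%) and 1 with TMM over detained introns only (1.75%). The 1 intron called per gene at 6 h of TMG became 0 with a minimum mean of 50 counts, where it was not tested, and 0 by the authors' adjusted p (0.541% of all). The 8 genes whose drug effects differed at 6 h became 14 with median-of-ratios factors (43.1% of all). Where the construction does not show the cause, the cause was not tested.

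Leaving out 1 library at a time gave 0 throughout at 2 h of OSMI-2, beside 0% of all genes and at most 0.205% of all introns. At 6 h, leaving out a DMSO library gave 0 to 23 genes, 50 to 53 introns and 50 to 51 introns per gene. The shares of all features were, in that order, 1.05% to 42.4%, 79.8% to 87.9% and 84.9% to 90%. At 2 h of TMG, leaving out any library gave 0 to 2 genes, 2 to 11 introns and 0 to 7 per gene. The shares of all were 1.96% to 9.76%, 1.45% to 13.4% and 0.726% to 13.2%. At 6 h of TMG the counts were 0 to 2, 0 to 11 and 0 to 11, beside 0.732% to 10.3%, 0.14% to 7.76% and 0.12% to 6.6%. With a DMSO or TMG library left out, the difference at 6 h ranged over 0 to 40 genes and 36 to 52 introns. The shares of all were 4.3% to 74.9% and 46.5% to 78.1%. At 2 h the difference gave 0 throughout, beside at most 2.21% of all genes and 0.345% of all introns. Time in DMSO gave 1 to 18 genes and 50 to 52 introns in the OSMI-2 experiment, beside 4.16% to 37% and 86.4% to 90.6% of all. In the TMG experiment it gave 8 to 18 and 2 to 13, beside 36.2% to 55% and 8.32% to 35.1%. A group left with 1 library was assumed to vary like the other. Among named values that passed in either setting, reversed signs were DDX3X at 6 h of OSMI-2 without DMSO a (-0.35 to 0.45 over single libraries left out) and, with TMM over introns only, DDX17 E004 (-0.029) and E006 (-0.021) at 2 h of TMG. Of the role examples at 6 h of OSMI-2, DHX9 (0.37) and DHX8 (-0.01) also changed sign without DMSO a and passed in neither setting. Over all alternatives, 25 named values that passed in neither setting changed sign in at least 1, none of them beyond 0.23 (log2) with all libraries. Introns of DDX46 rest on few counts, and their shares at 2 h of OSMI-2 could not show small changes.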
